A study of Mus musculus with 13 samples.

Results

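Expression of 8 genes of cholesterol synthesis and of its control was read in mouse aorta from a deposited table of 28510 genes with values. The 8 were found by their gene symbols: Hmgcs1, Idi1, Fdft1, Sqle, Lss and Dhcr7, which encode enzymes of the pathway, and Srebf2 and Insig1, which encode regulators of it. All 8 were among the 13748 genes tested. Whole aorta was sequenced in 4 groups of mice, and 12 libraries were analysed: 3 from mice given β-aminopropionitrile (BAPN) with fasudil, 2 from mice given BAPN, 3 from mice given fasudil and 4 from mice given water alone as vehicle. BAPN blocks lysyl oxidases, the enzymes that crosslink collagen and elastin fibres, and fasudil is a kinase inhibitor. BAPN was given at 0.25% in drinking water and fasudil at 150 mg/kg/day over 4 weeks of experiment, and in the combined group fasudil joined only after 1 week on BAPN. The labels describe the combined treatment as a way to induce aortic dissection. They give neither strain nor age, and they do not say that each library came from a separate animal. The sample titles share their first number across the BAPN libraries, while in every other group it changes between libraries, which is not explained. The p-values therefore measure the spread between these samples, which may be technical.

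Cells make cholesterol from acetyl-CoA through mevalonate, isoprenoid units and squalene, which is closed into the sterol ring and then trimmed to cholesterol. The genes of this pathway are switched on by the transcription factor SREBP2, which is carried from the endoplasmic reticulum to the Golgi by SCAP when sterols are low and is held back by INSIG proteins when sterols are high. Because SREBP2 also raises Insig1, its own restraint, Insig1 and the synthesis enzymes are commonly read together as its targets.

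Hmgcs1 and Insig1 were lower with BAPN and fasudil than with vehicle, by more than the spread between libraries. After scaling between libraries, both libraries given BAPN without fasudil were also below all vehicle libraries for these 2 genes, as in 17.6% of all genes. That difference did not pass the test over all genes. In deposited FPKM, the groups stayed apart for Hmgcs1 and overlapped for Insig1. The regulator gene Srebf2 and the other 5 enzymes did not pass in any comparison. Levels are FPKM (fragments relative to transcript length and library size) as the authors deposited them, scaled between libraries, and changes are log2 ratios of scaled FPKM plus 1.

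The windows around the start sites of the pair of genes that passed are shown because both genes are known SREBP targets. They come from RefSeq on GRCm38.p6 and run from 250 bases before to 50 bases after the start, at chr13:119690101-119690400 on the plus strand for Hmgcs1 and at chr5:28071162-28071461 on the plus strand for Insig1. Capitals mark a sterol regulatory element core, TCACNCCAC, and CCAAT boxes, both searched on either strand, so that a CCAAT box of the opposite strand reads ATTGG.
Hmgcs1: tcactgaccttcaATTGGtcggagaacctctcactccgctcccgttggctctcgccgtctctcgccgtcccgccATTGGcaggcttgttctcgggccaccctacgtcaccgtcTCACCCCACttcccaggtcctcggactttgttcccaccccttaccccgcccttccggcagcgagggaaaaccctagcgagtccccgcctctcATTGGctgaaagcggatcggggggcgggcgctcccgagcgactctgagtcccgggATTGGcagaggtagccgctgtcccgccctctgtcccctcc
Insig1: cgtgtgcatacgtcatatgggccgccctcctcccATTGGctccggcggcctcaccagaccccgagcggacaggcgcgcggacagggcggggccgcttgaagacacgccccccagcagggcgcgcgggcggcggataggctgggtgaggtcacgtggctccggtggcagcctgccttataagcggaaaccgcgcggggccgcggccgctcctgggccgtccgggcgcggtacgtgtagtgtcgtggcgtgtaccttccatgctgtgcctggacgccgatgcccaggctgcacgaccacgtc
Of the 8 genes, 6 had a window in that table. The core was in the window of 1 of these, Hmgcs1, as TCACCCCAC, with its first base 137 bases before the start site and no overlap with a CCAAT box, and it was in 1.24% of all 32851 windows. CCAAT was in windows of all 6, with 4 matches for Hmgcs1 and 1 for Insig1, and in 37.4% of all windows. These are matches of letters and not measured binding.

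The libraries differed in more than treatment. They held 11127 to 13601 genes at 1 FPKM or more, and genes of the mitochondrial chromosome took 23.7% to 53.3% of all FPKM. Smooth muscle markers were present in every library, with all 10 listed genes measured and a summed level of 1491 to 9201 in the combined group, 2034 to 4690 with BAPN, 476 to 4468 with fasudil and 1574 to 4828 with vehicle. BAPN replicate 1 stood apart, with 10.5% of its FPKM in immunoglobulin genes. Vehicle replicate 3 also stood apart, with summed airway epithelium markers of 14757 scaled FPKM against at most 252 in any other library. Its summed macrophage markers were 649, against 183 to 235 in the other vehicle libraries. In 7 of the 10 macrophage markers, however, this library was below every library given BAPN, so its sum does not speak for the whole list. It was the lowest vehicle library for Hmgcs1 and Insig1. A second deposited BAPN column repeated that library with 1 FPKM added in all 28510 genes and was left out. The fasudil, BAPN and combined groups were all set against the same 4 vehicle libraries, so those comparisons are not independent of each other. In whole tissue, fewer cells of a type and less RNA per cell cannot be told apart.

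Levels with vehicle ran over more than an order of magnitude. In mean scaled FPKM, Hmgcs1 was highest at 52.1 ± 9.76 (SD, n = 4), followed by Fdft1 at 45.8 ± 10.5 and Insig1 at 40.5 ± 8.86, and these 3 overlapped. Srebf2 averaged 16.1 ± 4.51, Dhcr7 6.53 ± 1.02, Idi1 6.27 ± 0.881 and Lss 3.8 ± 0.535. Sqle was lowest at 2.31 ± 0.924, and its highest vehicle library was below the lowest for Lss.

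**Figure D1:**
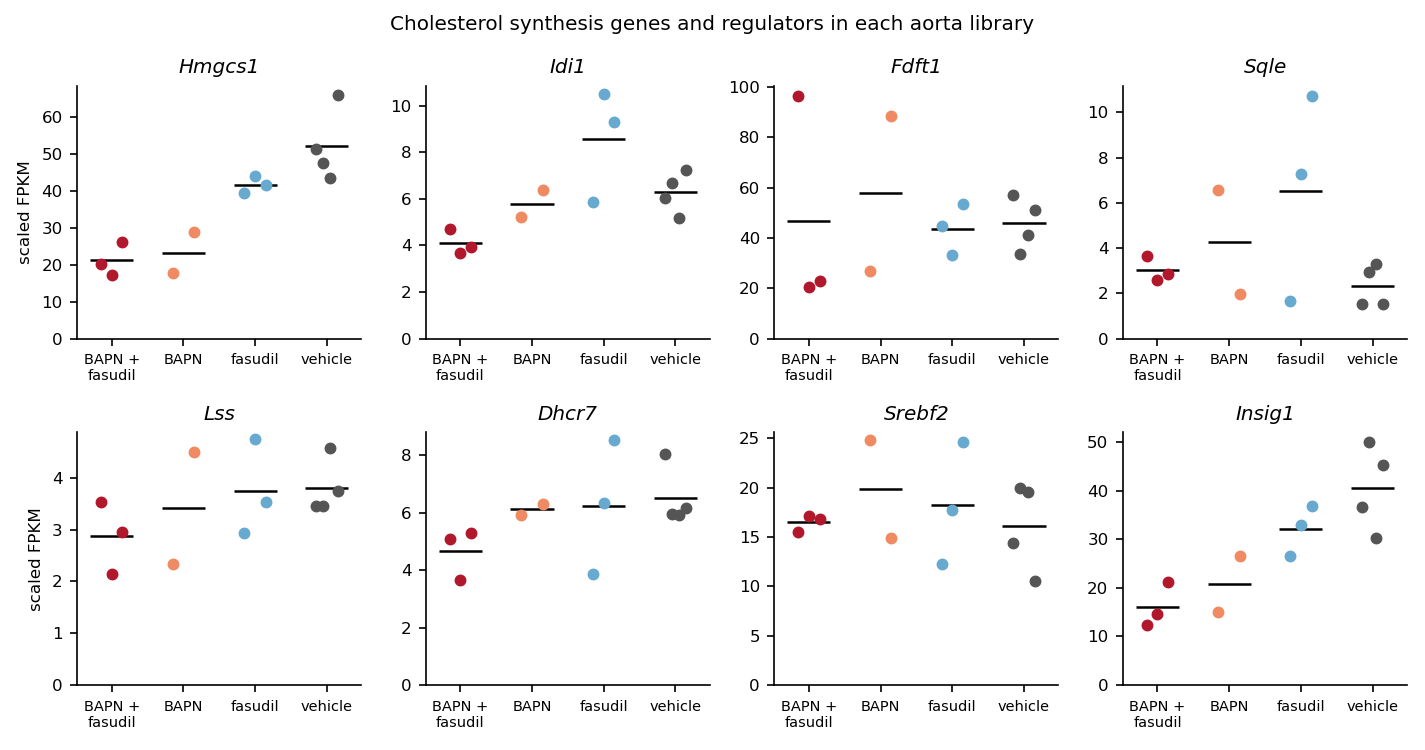
Scaled FPKM of the 8 genes in each of the 12 libraries, on a linear axis from 0. Points are libraries and bars are group means (n = 3 for BAPN with fasudil, 2 for BAPN, 3 for fasudil and 4 for vehicle). In these scaled values, Hmgcs1 and Insig1 are lower in every library given BAPN than in every library without it, as are 3.41% of all genes. In deposited FPKM this holds for Hmgcs1 and not for Insig1. Sqle is spread most widely with fasudil, and Fdft1 has 1 library far above the others in the combined group and 1 with BAPN.

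Hmgcs1 encodes HMG-CoA synthase, which makes HMG-CoA at the entry to the pathway. The gene (ENSMUSG00000093930.3) is given by the authors' table on the plus strand of chromosome 13, at 120151915 to 120169796 in GRCm39. It was at 20.1, 17.3 and 26.2 scaled FPKM in the combined libraries, at 17.6 and 28.9 with BAPN, at 39.5, 44.0 and 41.5 with fasudil, and at 51.4, 47.6, 43.5 and 65.9 with vehicle. The 5 libraries given BAPN were the lowest of the 12, and the groups with fasudil and vehicle overlapped. Against vehicle, the combined group had a log2 fold change of -1.26 ± 0.20 (SE) with a limma Benjamini-Hochberg adjusted p of 0.0308. Against fasudil it was -0.96 ± 0.22, which did not pass (adjusted p = 0.138, limma) although the libraries of these groups did not overlap. BAPN against vehicle was -1.15 ± 0.23 (adjusted p = 0.0836, limma). The combined group and BAPN overlapped, with a difference of -0.11 and a 95% interval of -0.64 to 0.43. Ordered by mean, vehicle was followed by fasudil at 41.7 ± 2.28 (SD, n = 3), BAPN at 23.2 ± 7.95 (SD, n = 2) and the combination at 21.2 ± 4.56 (SD, n = 3), and of the neighbours in this order only fasudil and BAPN did not overlap.

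Insig1 encodes the endoplasmic reticulum protein that holds SCAP and SREBP back. The gene (ENSMUSG00000045294.12) is on the plus strand of chromosome 5, at 28276361 to 28283660 in GRCm39. It was at 12.4, 14.7 and 21.3 scaled FPKM in the combined libraries, at 15.1 and 26.5 with BAPN, at 26.6, 32.9 and 36.8 with fasudil, and at 36.6, 50.1, 30.3 and 45.2 with vehicle. The same 5 libraries were lowest as for Hmgcs1, by a narrow margin between BAPN replicate 3 at 26.5 and fasudil replicate 1 at 26.6. In deposited FPKM that order did not hold. BAPN replicate 3 was at 28.6, against 23.6 in fasudil replicate 1, 27.8 in vehicle replicate 1 and 28.4 in vehicle replicate 3. The log2 fold change of the combined group against vehicle was -1.28 ± 0.25 (SE), and limma gave it an adjusted p of 0.0434. Against fasudil the change was -0.97 ± 0.27 (adjusted p = 0.161, limma), and BAPN against vehicle was -0.96 ± 0.28 (adjusted p = 0.113, limma). The combined group and BAPN overlapped, at -0.33 with a 95% interval of -0.99 to 0.33.

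Over all genes, 1.68% of the 13748 tested passed in the combined group against vehicle, 91 higher and 140 lower, against 2 of the 8 genes here, both lower. Without scaling, the split over all genes was 1452 higher and 228 lower, with a median log2 fold change over all genes of 0.35 in place of 0.06, and Hmgcs1 and Insig1 still passed as lower. After scaling, all 3 combined libraries were below all 4 vehicle libraries in 4 of the 8 genes (Hmgcs1, Insig1, Idi1 and Dhcr7), and in 16.6% of all genes. In deposited FPKM, Idi1 and Dhcr7 overlapped between these groups, and Hmgcs1 and Insig1 did not. All 5 libraries given BAPN were below the other 7 in 2 of the 8 after scaling, and in 3.41% of all genes. In deposited FPKM, that held for Hmgcs1 and not for Insig1. Without the filter on low values neither gene passed (adjusted p = 0.0594 and 0.0847, limma). The 2 calls were also lost in fits that left out 1 library, including fasudil libraries, which are not in this comparison. Hmgcs1 no longer passed (limma) without vehicle replicate 1 (adjusted p = 0.120), vehicle replicate 2 (0.0630), vehicle replicate 4 (0.0974), fasudil replicate 1 (0.0537), fasudil replicate 2 (0.0506), combined replicate 1 (0.0669) or combined replicate 2 (0.0775). Insig1 lost its call without the same 7 libraries (adjusted p from 0.0631 to 0.144, limma) and also without vehicle replicate 3 (0.0528) or combined replicate 3 (0.0665). Its log2 fold change stayed between -1.49 and -1.12, and that of Hmgcs1 between -1.42 and -1.13, in all 12 fits that left out 1 library.

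**Figure D2:**
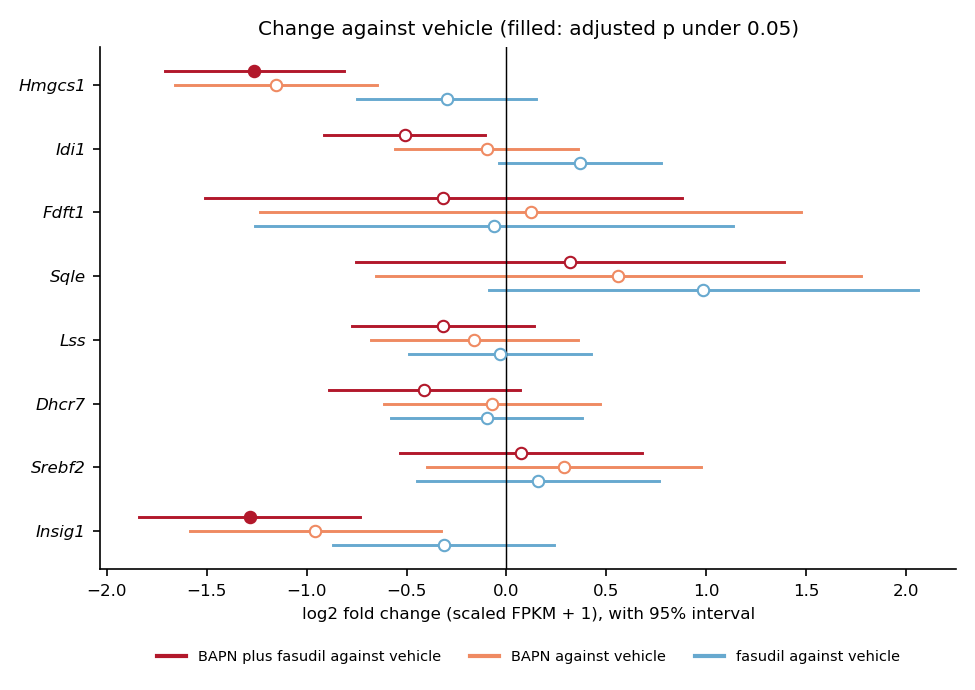
Log2 fold change of each gene against vehicle, with its 95% interval, for BAPN with fasudil, for BAPN and for fasudil. Filled points passed an adjusted p of 0.05 over all 13748 genes, and only Hmgcs1 and Insig1 in the combined group did so.

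Beside the fall of Hmgcs1 and Insig1, markers of other cell types moved between the same libraries. All 12 brown adipocyte markers were measured, none was at 0 in all libraries, and their summed level was 1987 to 2537 scaled FPKM in the combined group, 653 to 3448 with BAPN, 4110 to 8191 with fasudil and 6788 to 11526 with vehicle. The 5 libraries with the lowest sums were the same 5 that were lowest for Hmgcs1 and Insig1, and 3 of 11 tested markers passed as lower in the combined group against vehicle. Within groups, the order of the libraries by this sum was also their order by Hmgcs1 among the vehicle libraries (sums of 6788, 7449, 10376 and 11526 with Hmgcs1 at 43.5, 47.6, 51.4 and 65.9) and their order by Insig1 among the combined libraries (sums of 1987, 2313 and 2537 with Insig1 at 12.4, 14.7 and 21.3). Of the BAPN libraries, replicate 1 was below replicate 3 in all 3 measures. The order by the sum was not that by Hmgcs1 in the combined group, by Insig1 with vehicle or by either gene with fasudil, where replicate 3 had the lowest sum, 4110, and the highest Insig1, 36.8. The 11 white and general adipocyte markers summed to 7120 to 12171 in the combined group, 5565 to 12190 with BAPN, 12901 to 20369 with fasudil and 13650 to 20787 with vehicle. Of these 11, 1 passed as higher in the combined group against vehicle and 0 as lower. At an unadjusted p under 0.05 by limma, 5 were lower and 1 higher. The higher marker was Lep, at 6.19 to 11.8 scaled FPKM against 0.530 to 2.42 with vehicle. Macrophage markers went the other way from the adipocyte sums, with 5 of 10 higher in the combined group. Their sums were 436 to 1116, against 649 in vehicle replicate 3 and 183 to 235 in the other vehicle libraries. In 7 of the 10, all libraries given BAPN were above all libraries without it, as in 2.17% of all genes. The 9 fibroblast markers summed to 1356 to 1981 in the combined group and 446 to 1010 with vehicle, and 1 passed as higher. The 6 red blood cell markers summed to 10804 to 22160 in the combined group, 4546 to 5038 with BAPN, 1720 to 9021 with fasudil and 3014 to 6765 with vehicle, and 1 of 5 tested passed as higher. The 8 endothelial markers summed to 311 to 442 in the combined group and 192 to 281 with vehicle, and 0 passed by limma, with 4 higher at an unadjusted p under 0.05. Mitochondrial genes took 40.5%, 31.3% and 31.4% of all FPKM in the combined libraries, below the 43.6% to 53.3% of the vehicle libraries. The part of these levels in the result was not tested.

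**Figure D3:**
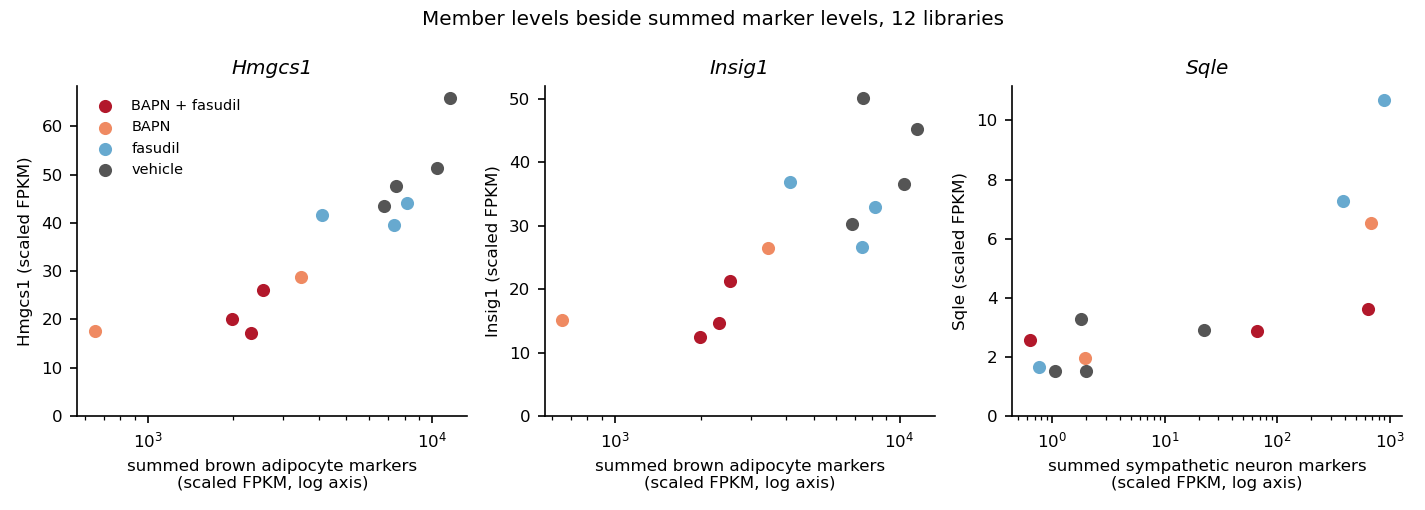
Levels of Hmgcs1 and Insig1 beside the summed brown adipocyte markers, and of Sqle beside the summed sympathetic neuron markers, in scaled FPKM with a log axis for the sums. Each point is 1 of the 12 libraries. The 5 libraries given BAPN lie at the lower left for Hmgcs1 and Insig1, and the 4 libraries with the highest neuron sums are the 4 highest for Sqle.

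Idi1 encodes the isomerase that interconverts the isoprenoid building units. It was at 4.71, 3.67 and 3.92 scaled FPKM in the combined libraries, at 5.20 and 6.37 with BAPN, at 5.88, 10.5 and 9.30 with fasudil, and at 6.03, 6.66, 5.17 and 7.23 with vehicle. The combined libraries were the 3 lowest of all 12 after scaling. In deposited FPKM they overlapped vehicle, at 4.91 in combined replicate 1 against 4.59 and 4.86 in vehicle replicates 1 and 3. Without scaling, the log2 fold change against vehicle was -0.19. Over all genes, the combined libraries were below all vehicle libraries in 16.6%, all fasudil libraries in 11.6% and both BAPN libraries in 3.19%. The share of genes with all of these at once was not counted. The change was -0.51 ± 0.18 (SE) against vehicle (adjusted p = 0.114), -0.41 ± 0.22 against BAPN (adjusted p = 1) and -0.88 ± 0.19 against fasudil (adjusted p = 0.138, all by limma), so none passed over all genes. The interaction, which compares what fasudil did in mice given BAPN with what it did in mice not given BAPN, was -0.78 with a 95% interval of -1.41 to -0.15 and an adjusted p of 0.837 by limma. The authors' table gives Idi1 (ENSMUSG00000058258.15) 1 entry on chromosome 13 from 8935537 to 53586851 with no strand, far wider than a gene of this kind, and what that does to its value was not tested.

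Fdft1 encodes squalene synthase, the first enzyme that is committed to sterols. It was at 96.6, 20.3 and 23.0 scaled FPKM in the combined libraries, at 26.8 and 88.7 with BAPN, at 44.6, 33.2 and 53.5 with fasudil, and at 57.3, 33.6, 41.2 and 51.1 with vehicle. Combined replicate 1 and BAPN replicate 3 were far above all others, and the remaining libraries given BAPN were the 3 lowest. The fitted change of the combined group against vehicle was -0.32, with a 95% interval of -1.51 to 0.88. Without combined replicate 1 it was -1.02, without combined replicate 2 0.08 and without scaling 0.06, and with library quality weights it was -0.92 and passed (adjusted p = 0.0270, limma). With these weights 37.8% of all genes passed in this comparison. The same 2 libraries were the highest in 1.97% of all genes and in none of the other 7.

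Sqle encodes squalene epoxidase, which adds the oxygen needed to close the sterol ring. It was at 3.64, 2.59 and 2.86 scaled FPKM in the combined libraries, at 6.54 and 1.97 with BAPN, at 1.66, 7.27 and 10.7 with fasudil, and at 1.51, 2.92, 3.28 and 1.53 with vehicle. Combined replicate 1, BAPN replicate 1 and fasudil replicates 2 and 3 were the 4 highest, and every treated group overlapped vehicle. The change against vehicle was 0.32 (95% interval -0.75 to 1.39) in the combined group and 0.99 (-0.09 to 2.06) with fasudil, and the interaction was -1.23 (-2.90 to 0.44). The same 4 libraries had the highest summed sympathetic neuron markers, at 643, 679, 384 and 902 scaled FPKM against at most 65.9 in the others, with all 6 markers measured and none at 0 in all libraries. These were also the 4 highest libraries in 3.4% of all tested genes, with Mvd, which encodes an enzyme of the mevalonate pathway, among them. The part of those markers in the Sqle values was not tested.

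Lss encodes lanosterol synthase, which closes squalene epoxide into the first sterol. It was at 3.54, 2.14 and 2.96 scaled FPKM in the combined libraries, at 2.34 and 4.49 with BAPN, at 2.93, 4.74 and 3.53 with fasudil, and at 3.44, 3.44, 4.58 and 3.75 with vehicle. All treated groups overlapped vehicle. The change of the combined group against vehicle was -0.32, with a 95% interval of -0.77 to 0.14.

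Dhcr7 encodes the reductase of the last step to cholesterol, at which 7-dehydrocholesterol can instead be taken for vitamin D. It was at 5.08, 3.65 and 5.31 scaled FPKM in the combined libraries, at 5.92 and 6.32 with BAPN, at 3.86, 6.35 and 8.56 with fasudil, and at 8.06, 5.96, 5.94 and 6.18 with vehicle. After scaling, the combined libraries were below all vehicle and BAPN libraries and overlapped those with fasudil. In deposited FPKM they also overlapped vehicle, at 6.22 in combined replicate 3 against 4.78 in vehicle replicate 4. The change was -0.41 (95% interval -0.89 to 0.07) against vehicle and -0.34 (-0.91 to 0.23) against BAPN.

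Srebf2 encodes SREBP2 itself, which is controlled by cleavage of the protein as well as by its transcript. It was at 15.5, 17.2 and 16.8 scaled FPKM in the combined libraries, at 24.9 and 14.9 with BAPN, at 12.3, 17.7 and 24.7 with fasudil, and at 14.4, 20.0, 19.5 and 10.5 with vehicle. The combined libraries lay close together inside the range of vehicle. The change of the combined group against vehicle was 0.07, with a 95% interval of -0.53 to 0.68.

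Of the 8 genes, none passed in the other comparisons. Against BAPN, the combined group had 1 gene called of all tested (0.00727%) and 462 at an unadjusted p under 0.05 by limma, of which 0 were among the 8. The combined libraries were below both BAPN libraries in Idi1 and Dhcr7, 2 of 8 genes, and in 3.19% of all genes. Against fasudil, 0.0218% of all genes were called and 2712 had an unadjusted p under 0.05, and 3 of the 8 did (Hmgcs1, Insig1 and Idi1). All combined libraries were below all fasudil libraries in these 3 after scaling, and in 11.6% of all genes. In deposited FPKM Insig1 overlapped, at 25.0 in combined replicate 3 against 23.6 in fasudil replicate 1. For BAPN against vehicle limma called 0% of all genes, with 2831 at an unadjusted p under 0.05, including Hmgcs1 and Insig1. In these 2 of 8 both BAPN libraries were below all vehicle libraries after scaling, as they were in 17.6% of all genes. In deposited FPKM that held for Hmgcs1 and not for Insig1, for which the log2 fold change without scaling was -0.46. Without BAPN replicate 3, the log2 fold change in that comparison was -1.49 for Hmgcs1 and -1.34 for Insig1. Without BAPN replicate 1 it was -0.81 and -0.57. Each of these fits left 1 BAPN library, so only the size of the change is given. Replicate 1 is the library with 10.5% of its FPKM in immunoglobulin genes. For fasudil against vehicle limma also called 0%, with 1098 genes at an unadjusted p under 0.05 and 0 of the 8. The interaction had 1 gene called (0.00727%) and 724 at an unadjusted p under 0.05, of which Idi1 was 1.

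BAPN replicate 2 can be recovered from the mean that the authors gave for the group, for which exactly 1 value per gene was possible. On the same scale it had Hmgcs1 at 20.3 and Insig1 at 31.2 FPKM, with a brown adipocyte sum of 1362. Hmgcs1 was therefore again below every library not given BAPN, while Insig1 was above fasudil replicate 1 and vehicle replicate 3. With it in the fit, Hmgcs1 passed in BAPN against vehicle (-1.20, adjusted p = 0.0207) and Insig1 did not (-0.75, adjusted p = 0.0859, limma).

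The other enzymes of cholesterol synthesis gave no call. Of 19 listed, 18 were tested, and in the combined group against vehicle 0 passed by limma, 4 were lower and 1 higher at an unadjusted p under 0.05, and the median log2 fold change was -0.16, against 0.06 over all genes. Of all genes tested, 26.4% (3632) had an unadjusted p under 0.05 in this comparison, 14.4% lower and 12.1% higher, so the 5 of 18 were near the share over all genes. Pmvk, the phosphomevalonate kinase, was at 13.8, 12.0 and 12.5 scaled FPKM in the combined libraries, against 24.01, 26.9, 17.2 and 24.1 with vehicle (-0.79, adjusted p = 0.0543). Acat1 had a log2 fold change of -1.45 (adjusted p = 0.0557), Nsdhl, which removes methyl groups from sterols, of -0.41 (0.0767) and Lbr, a sterol reductase that is also the lamin B receptor, of 0.45 (0.0751, all by limma). Acat1 was 1 of the 4 counted as lower, although it encodes a thiolase of mitochondria. Of 8 other settings of the fit, Acat1 passed in 4, Pmvk in 3, Lbr in 2 and Nsdhl in 1. For each gene these included library quality weights, with which 37.8% of all genes passed. With fasudil against vehicle, 5 of the 18 were higher and 0 lower at an unadjusted p under 0.05, against 4.18% higher and 3.8% lower of all genes, and 0 passed by limma over all genes.

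Of 14 other regulators of SREBP and of enzyme turnover in the pathway, 0 passed in the combined group against vehicle, 3 were lower at an unadjusted p under 0.05 (26.4% of all genes in either direction), and the median was -0.19. Erlin2, which acts in protein degradation at the endoplasmic reticulum, was at -0.52 (adjusted p = 0.0845), Vcp, the segregase that extracts proteins from membranes, at -0.34 (0.104) and Scap, the escort of SREBP, at -0.27 (0.206, all by limma). Scap and Vcp changed sign without scaling, at 0.08 and 0.04. Of 8 other settings, Erlin2 passed in 2 and Vcp and Scap in 1 each. Library quality weights, with which 37.8% of all genes passed, were among these for each gene. Of 11 genes of cholesterol uptake, 10 were tested and 0 passed, with 2 lower and 1 higher at an unadjusted p under 0.05, near the 26.4% of all genes, and a median of 0.04. The endocytic receptor gene Lrp1 was at 339, 265 and 267 scaled FPKM in the combined libraries, against 144, 193, 148 and 137 with vehicle (0.90, adjusted p = 0.0500116, just above the threshold). Vldlr, a lipoprotein receptor, was at -0.95 (0.0717) and Lipa, the lysosomal lipase that frees cholesterol from its esters, at -0.69 (0.135, both by limma). Of 8 other settings, Lrp1 passed in 5, Vldlr in 2 and Lipa in 1, and the same weights were among these for each.

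Of 11 genes of cholesterol efflux, esterification and the LXR receptors, 10 were tested and 0 passed, with 1 lower and 2 higher at an unadjusted p under 0.05, near the 26.4% of all genes, and a median of 0.36. Apoe, the apolipoprotein, was at 2194, 1361 and 1650.5 scaled FPKM in the combined libraries, against 881, 818, 897 and 1242 with vehicle (0.85, adjusted p = 0.0554). Soat1, which esterifies cholesterol, was at 0.71 (0.0643), Nr1h3, which encodes LXRα, at -0.88 (0.127) and Ch25h, which makes 25-hydroxycholesterol, at 0.89 (0.221, all by limma). Of 8 other settings, Apoe and Soat1 passed in 4 each, Nr1h3 in 2 and Ch25h in 1. Each passed with library quality weights, with which 37.8% of all genes passed. Of 15 lipogenic genes that SREBP1 is known to drive, with a median of -1.35, 2 fell and 0 rose, against 1.68% of all genes called, and 10 were lower and 1 higher at an unadjusted p under 0.05, against 14.4% and 12.1% of all genes. Elovl6, a fatty acid elongase, fell by 2.94 on the log2 scale (adjusted p = 0.0397), to 8.12, 4.93 and 8.05 scaled FPKM in the combined libraries, against 77.9, 72.9, 30.7 and 71.3 with vehicle. Scd1, a fatty acid desaturase, fell by 2.13 (adjusted p = 0.0434, limma). Elovl6 lost its call without vehicle replicate 1, 2 or 4, fasudil replicate 1 or 2 or any combined replicate (adjusted p from 0.0589 to 0.143, limma), and Scd1 without these or vehicle replicate 3 (0.0558 to 0.144). Fasn, the fatty acid synthase, was at -3.29 (0.0500116) and Gpam, an acyltransferase of lipid synthesis, at -1.72 (0.0523, both by limma). Of 8 other settings, Fasn passed in 6 and Gpam in 4. Fat cells express these lipogenic genes strongly, and the adipocyte marker sums given above were lower in the same libraries. The part of fat cells in these levels was not tested.

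**Figure D4:**
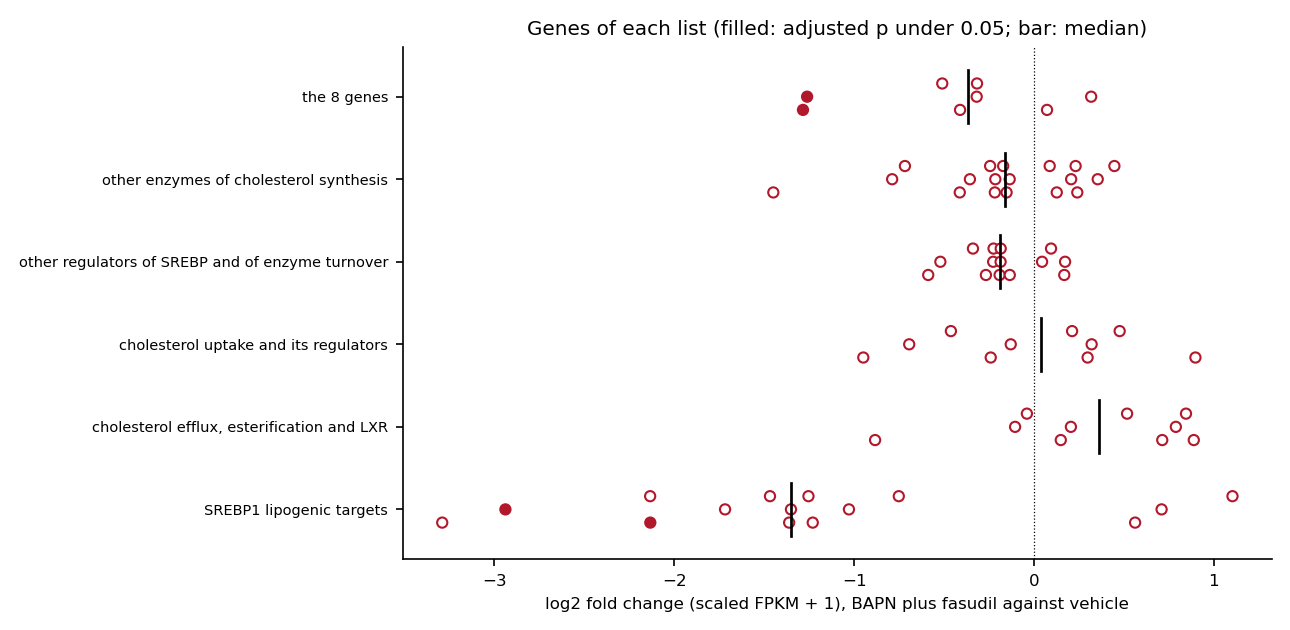
Log2 fold changes of BAPN with fasudil against vehicle for the 8 genes and for 5 lists of related genes. Each point is a tested gene, filled where its adjusted p over all 13748 genes was under 0.05, and the bar is the median of the list, which was -0.36 for the 8 genes and -1.35 for the SREBP1 lipogenic genes.

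Across the 12 libraries the 8 genes did not form 1 profile. Combined replicate 2 was the lowest of all libraries in 5 of them, Hmgcs1, Idi1, Lss, Fdft1 and Dhcr7. How often it was lowest over all genes was not counted, so this may be a trait of the library. Pearson's r of each gene with the mean of the 8 standardised profiles ran from 0.24 for Srebf2 to 0.88 for Idi1, a description in which every gene is part of the mean. The genes outside the 8 whose profiles were most like that mean, of 13740 ranked, were Igfals (Pearson's r 0.87, Spearman's rho 0.82, n = 12 libraries), Moap1 (0.86, 0.91), Ran (0.85, 0.78), Eif4ebp3 (0.84, 0.80), Nol6 (0.84, 0.73) and Pgk1-rs7 (0.83, 0.79), the last a near copy of Pgk1 with which it may share reads. All these points share the libraries, their depth and their treatment groups.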

How the data were processed

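RNA from whole mouse aorta was extracted with a TRIzol kit, per the labels' protocols. The authors deposited 1 table of FPKM per gene and library, normalised to transcript length and library size per the file headers. Bowtie2, RSEM and DESeq2, and the builds GRCm39 and mm10, are listed per the submitters' processing notes without versions or roles. The table's positions are on GRCm39, since 2.53% of the 28350 genes shared with GENCODE M21 (GRCm38) have the same start there. The longest transcript length in bases, also in the deposited table, was not used in any test. No counts are in the table, so the depth is unknown and the number of libraries limits the precision.

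The 8 genes, the gene lists and the comparisons were chosen with earlier results of these data known. The 13 samples listed gave 12 usable columns. The deposited BAPN replicate 2 column (1 left out) equals replicate 1 plus 1 FPKM in all 28510 genes, and the authors' BAPN mean was used to recover it for an alternative. Values were scaled by a trimmed mean of log ratios (30% of ratios and 5% of levels at each end) against fasudil replicate 2, the library whose upper quartile was nearest the mean, with divisors of 0.761 to 1.36. The divisors were 0.761 to 0.940 with vehicle, 0.887 to 1.10 with fasudil and 1.04 to 1.36 in libraries given BAPN. A gene was kept if 2 or more libraries had 1 FPKM or more, and 13748 genes were. Changes in log2(scaled FPKM + 1) were tested with limma 3.58.1 in R 4.3.3 (trend, robust prior), with all 4 groups in 1 fit and no covariate, adjusted by Benjamini-Hochberg over all genes in each of 6 comparisons at 0.05. The pseudocount of 1 understates changes of low genes. Genes named from 5 lists were those called in any comparison plus the 4 with the smallest adjusted p in BAPN with fasudil against vehicle, of which some are not reported here. Alternatives were no scaling, another scaling, a pseudocount of 0.1, no filter, library weights, only the compared groups, a block, the recovered library and leaving out each of 12 libraries.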

Additional observations from a re-analysis of the deposited data

Results flagged for a closer look

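Vehicle replicate 1 had Dhcr7 at 8.06 scaled FPKM, against 5.94 to 6.18 in the other 3 vehicle libraries. The gap to its nearest neighbour was 0.887 of the range of the group, above the 95% critical value of Dixon's criterion for 4 samples. Chance flags about 1 in 20 groups. The vehicle group was the only one large enough for this check, which was made for all 8 genes.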

How the results depend on the processing

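In BAPN with fasudil against vehicle, 2 of the 8 genes passed under most settings, but 0 did without the filter and with the replicate block, and 4 did with library quality weights (Hmgcs1, Insig1, Idi1 and Fdft1). Leaving out 1 library gave 0 to 2. Genes called over the table numbered 1680 without scaling, 21 without the filter, 5200 with weights, 1753 with only the compared groups in the fit, 0 with the block and 961 with the recovered BAPN replicate 2, and 1 to 1695 when 1 library was left out, the most without BAPN replicate 1. Against BAPN the genes called were 17 without the filter and 0 with a pseudocount of 0.1, with weights, with only the compared groups and with the block (0 to 93 leaving out 1 library). Against fasudil, 2 of the 8 passed with weights (Hmgcs1 and Idi1), and the genes called were 1 without the filter, 4388 with weights, 1 with only the compared groups, 0 with the block, 24 with the recovered library and 0 to 88 leaving out 1. In BAPN against vehicle, 1 of the 8 passed with the recovered library and 0 to 2 leaving out 1, and the genes called were 18 without scaling, 23 without the filter, 1086 with the recovered library and 0 to 1961 leaving out 1. In fasudil against vehicle they were 1 without the filter, 113 with weights, 1 with the recovered library and 0 to 12 leaving out 1. In the interaction they were 0 without scaling, 11 without the filter, 0 with weights, 0 with the block and 0 to 94 leaving out 1. No cause of these changes was tested.

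In 952 values of the 8 genes under all alternatives and comparisons, 58 turned sign, of which 0 had an adjusted p under 0.05 before or after. Among the values given above, Srebf2 in BAPN with fasudil against vehicle was -0.10 with the replicate block and -0.11 to 0.18 leaving out 1 library, and Fdft1 was 0.057 without scaling and -1.02 to 0.078 leaving out 1. Against BAPN, Hmgcs1 was 0.12 with weights and -0.45 to 0.23 leaving out 1, and Insig1 was -0.71 to 0.058. Without scaling, Vcp was 0.040 and Scap 0.081 in BAPN with fasudil against vehicle. The replicate numbers of the labels were not used as pairs in the main fit. Over 15 pairs with the same number, the correlation of deviations from the group means ran from -0.49 to 0.21 and was above 0.1 in 3. In groups this small the deviations depend on each other, so these values cannot exclude pairing. With a lone BAPN library left, its spread is assumed to be that of the other groups.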

Other observations

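The pattern of Fdft1, with combined replicate 1 and BAPN replicate 3 above all other libraries, was looked for over the table after its values were seen. Among 172 tested genes with these 2 libraries highest and both at 5 FPKM or more, Fdft1 ranked 3 by the ratio of the lower of the 2 to the highest other library, at 1.55. Impdh1, which encodes an enzyme of guanine nucleotide synthesis, ranked 1 at 1.89, with 229 scaled FPKM in combined replicate 1 and 221 in BAPN replicate 3, and at most 117 elsewhere. Ivns1abp ranked 2 at 1.82, with 149 and 131 in the same libraries and at most 72.0 elsewhere.

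Nsdhl was at 12.8, 14.6 and 14.3 scaled FPKM with fasudil, against 11.2, 10.4, 8.38 and 10.9 with vehicle. It did not pass over all genes.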
